A study of Mus musculus with 11 samples.

Results

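SOX transcription factors were examined in RNA-seq libraries of mouse mammary epithelial cells. The 10 members were given by name (*Sox4*, *Sox5*, *Sox6*, *Sox7*, *Sox9*, *Sox10*, *Sox11*, *Sox12*, *Sox13* and *Sox17*), out of 27179 genes counted, and not by a threshold on their values. All 10 were among the 15422 genes with over 0.5 CPM (counts scaled to library size) in at least 3 libraries, which were tested. The study compared freshly sorted epithelial subsets with cultured cells in order to judge a culture system for a genetic screen. MaSC/basal cells (CD29hi CD24+, a basal fraction enriched for mammary stem cells that also contains myoepithelial cells), LP cells (CD29lo CD24+ CD61+, enriched for luminal progenitors) and ML cells (CD29lo CD24+ CD61-, enriched for mature luminal cells) were represented by 3 libraries each. All 3 subsets came from the glands of wild-type virgin FVB/N females, labelled as 8 weeks old, and were sorted after depletion of lineage-positive cells, with CD31, an endothelial antigen, among the lineage antigens. Mammosphere cells (1 library) were MaSC/basal cells of such mice kept as floating spheres for 7 days, and Comma Dβ cells (1 library) are the established mammary line CommaD-βGeo, which is of Balb/c and mid-pregnancy origin and labelled wild type. The subsets are enriched fractions and not pure cell types, so that in these bulk samples fewer cells of a type and less RNA per cell cannot be told apart. The labels do not say which libraries came from separate mice, and p-values therefore measure only the spread between these libraries.

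SOX proteins bind the minor groove of DNA through a high-mobility-group (HMG) box related to that of the testis-determining factor SRY, and bend the DNA. They are sorted into subgroups by the sequence of that box, and they usually act together with a partner factor bound nearby. Many SOX genes are known for setting or holding the fate of progenitor cells, and SOX9 and SOX10 in particular are known regulators of mammary stem and progenitor cells.

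Libraries held 19958838 to 75795034 counted reads, and 0.5 CPM was 9.36 reads in the shallowest. Levels are CPM scaled by trimmed mean of M values (TMM) factors of 0.863 to 1.21. The labels divide the libraries into 3 library batches, of which batch 1 held replicate 1 of each subset and the mammosphere library, batch 2 held MaSC/basal 2 and 3, LP 2 and ML 2, and batch 3 held LP 3, ML 3 and the Comma Dβ library. Defining markers went with the labels, since all 9 basal markers were called higher, and all 8 luminal markers lower, in MaSC/basal cells against each luminal subset. Of 6 LP markers, 5 were higher in LP than in ML cells, beside 14.3% of all genes. The 6 include *Itgb3*, which encodes CD61, the antigen by which LP and ML cells were sorted, so that gene is no independent check of the labels. The summed LP marker level was 2255 to 2805 CPM in LP cells and 156 to 227 CPM in MaSC/basal cells, but 1353 CPM in ML 2 against 668 CPM in ML 1 and 485 CPM in ML 3. The submitted name of MaSC/basal 1 contains p53, although its label gives a wild-type genotype, and the name given to the mammosphere library could stand for several pooled cultures, here counted as 1 library.

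The members had different patterns over the subsets. *Sox11* and *Sox7* were higher in MaSC/basal cells than in either luminal subset, *Sox9* and *Sox6* were higher in both luminal subsets than in MaSC/basal cells, *Sox12* was low in LP cells alone among the 3 subsets, and *Sox5* and *Sox10* were higher in LP than in ML cells. Between MaSC/basal and LP cells, 4 members were higher in MaSC/basal cells (*Sox7*, *Sox11*, *Sox12* and *Sox17*) and 2 were lower (*Sox6* and *Sox9*) at an adjusted p under 0.05 by edgeR's quasi-likelihood test. Of these, *Sox17* passed the filter only through the MaSC/basal libraries, where it was high. The background was 57.4% of all genes called in either direction, 29.4% higher and 28.0% lower, so that 6 of 10 members is near the share of all genes. Against ML cells, 3 members were higher (*Sox5*, *Sox7* and *Sox11*) and 2 were lower (*Sox6* and *Sox9*). These counts were also near the share of all genes, 58.7% (28.9% higher and 29.7% lower). Between LP and ML cells, 3 were higher in LP cells (*Sox5*, *Sox10* and *Sox11*) and *Sox12* was lower, beside 31.8% of all genes (14.3% higher and 17.5% lower). Against the mean of LP and ML, *Sox7*, *Sox11*, *Sox12* and *Sox17* were higher and *Sox6* and *Sox9* lower. The number of members called was again near the share of all genes, 61.7% (31.2% higher and 30.5% lower). The median log2 fold change of the 10 members was -0.04, 0.42 and 0.14 in the comparisons of MaSC/basal with LP, MaSC/basal with ML and LP with ML, and that of all genes was -0.01 in each. Without TMM scaling the median of all genes moved to 0.14, -0.03 and -0.19, and the share of higher calls among all genes called between LP and ML cells moved from 45.0% to 29.4%, but the counts of called members did not change.

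**Figure D1:**
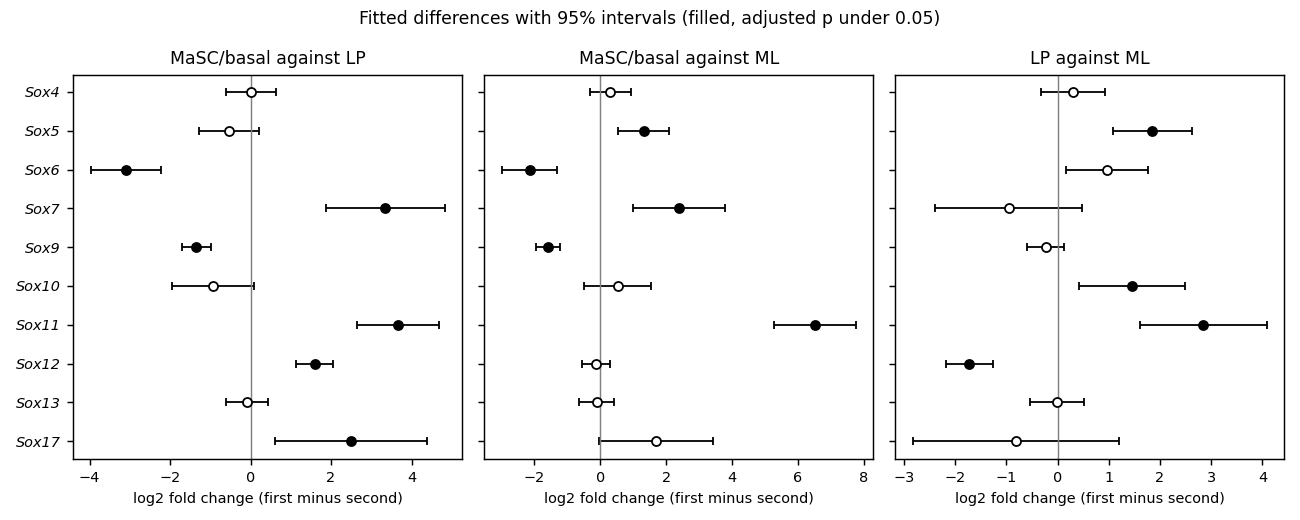
Fitted log2 fold changes of the 10 members (first subset minus second) in the 3 pairwise comparisons, with 95% intervals, where filled points have an adjusted p under 0.05. *Sox11* lies at 3.66 and 6.50 in MaSC/basal cells against LP and ML cells and *Sox6* at -3.10 and -2.15, whereas *Sox4* and *Sox13* have intervals across 0 in all 3 comparisons.

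By subgroup, the members were SOXC (*Sox4*, *Sox11* and *Sox12*), SOXD (*Sox5*, *Sox6* and *Sox13*), SOXE (*Sox9* and *Sox10*) and SOXF (*Sox7* and *Sox17*). In RefSeq annotation of GRCm38.p6, the build of the authors' alignment (mm10), *Sox4* lies at chr13:28948919-28953699, *Sox11* at chr12:27334268-27342718, *Sox12* at chr2:152393611-152398046, *Sox9* at chr11:112782210-112787757, *Sox10* at chr15:79154913-79164490, *Sox7* at chr14:63943706-63950732, *Sox17* at chr1:4490928-4497426 and *Sox13* at chr1:133382300-133424459. *Sox5* (chr6:143828425-144782287, 953863 bases) and *Sox6* (chr7:115470872-116040776, 569905 bases) span far longer regions, with up to 15 and 17 exons in a GENCODE vM21 transcript, whereas *Sox4* and *Sox11* consist of 1 exon. Exons of *Sox4*, *Sox5* and *Sox17* overlap exons of a noncoding gene on the opposite strand (*Gm26735*, *Sox5os1* and *Gm37587*) by up to 2616, 1330 and 804 bases. The library kit does not mark strand, and reads of these pairs cannot be told apart there.

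RefSeq start-site windows were at hand for *Sox4*, *Sox5*, *Sox6*, *Sox11*, *Sox12* and *Sox13*, and not for *Sox7*, *Sox9*, *Sox10* and *Sox17*. The *Sox5* window and all 6 *Sox6* windows belong to starts inside the gene's span, downstream of its outer end, and the counts, which are per gene, do not show which start was used. The *Sox13* window (chr1:133424213-133424462) also lies almost wholly inside the gene's span. Windows of *Sox4*, *Sox12*, *Sox13* and some *Sox6* starts overlap an annotated exon. The 250 bases before each start were searched on both strands for the core SOX motifs ACAAT and ACAAAG, which do not overlap each other in these windows. The window of *Sox5* and all 6 windows of *Sox6* held at least 1 match, and those of *Sox4*, *Sox11*, *Sox12* and *Sox13* held none, while 38.8% of 32851 RefSeq windows of this length held a match. GC content was 39.6% for *Sox5* and 34.0% to 60.8% for the *Sox6* starts, and 50.8%, 58.0%, 74.4% and 72.4% for *Sox4*, *Sox11*, *Sox12* and *Sox13*, against a median of 52.4%. The CCAAT box, a common promoter element searched after the sequences had been seen, occurred 4 times before *Sox4* and 1 time each before *Sox11* and *Sox12*, 3 times and 1 time before 2 of the *Sox6* starts, not before *Sox5* or *Sox13*, and in 33.8% of all windows. These matches are letters in a window and not measured sites. Windows to be shown were taken from the SOXC genes, *Sox5* and *Sox6*, 1 per gene, and only where the window overlaps no annotated exon. The windows of *Sox11*, the member that differed most between MaSC/basal and ML cells, and of *Sox5* and 1 start of *Sox6*, the members with their highest mean in LP cells that carry a match, are shown 5′ to 3′ on the minus strand, those of *Sox5* and *Sox6* being windows of internal starts (chr12:27342719-27342968, chr6:143947107-143947356 and chr7:116031048-116031297 of GRCm38.p6). Capitals mark the CCAAT box on the opposite strand at position -60 before the start of *Sox11*, ACAAT at -154 before that internal start of *Sox5*, and ACAAAG on the opposite strand at -167 before that internal start of *Sox6*.
*Sox11*: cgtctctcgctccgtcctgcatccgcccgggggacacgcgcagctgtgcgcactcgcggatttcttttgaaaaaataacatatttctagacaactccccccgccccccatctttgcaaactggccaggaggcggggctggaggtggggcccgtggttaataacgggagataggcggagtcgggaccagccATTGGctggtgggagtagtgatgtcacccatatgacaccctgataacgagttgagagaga
*Sox5*: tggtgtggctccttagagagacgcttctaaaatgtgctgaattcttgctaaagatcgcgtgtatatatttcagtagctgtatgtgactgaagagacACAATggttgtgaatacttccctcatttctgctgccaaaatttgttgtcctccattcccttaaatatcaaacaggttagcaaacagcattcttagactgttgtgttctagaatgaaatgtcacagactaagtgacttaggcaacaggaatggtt
*Sox6*: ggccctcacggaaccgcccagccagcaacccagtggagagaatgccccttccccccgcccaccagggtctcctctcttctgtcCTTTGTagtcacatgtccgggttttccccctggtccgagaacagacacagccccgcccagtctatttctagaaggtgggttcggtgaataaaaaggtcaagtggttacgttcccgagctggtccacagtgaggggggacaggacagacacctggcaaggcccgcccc

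Levels of different genes were compared per length, as TMM-scaled CPM per kilobase of exon (RPKM). *Sox4*, *Sox9* and *Sox10* together made up 88.3% ± 3.75 (SD, n = 3) of the RPKM summed over 19 SOX genes in MaSC/basal cells, 94.4% ± 0.986 in LP cells and 93.5% ± 1.28 in ML cells. In MaSC/basal cells *Sox4* led at 122 ± 31.4 RPKM, followed by *Sox10* at 51.6 ± 4.22 and *Sox9* at 44.6 ± 6.82, whose ranges overlapped, and then by *Sox13* at 9.25 ± 2.19. In LP cells *Sox4* (122 ± 45.3 RPKM), *Sox9* (113 ± 11.9 RPKM) and *Sox10* (98.5 ± 34.1 RPKM) followed each other with overlapping ranges. In ML cells *Sox9* (133 ± 12.8 RPKM) and *Sox4* (98.7 ± 19.9 RPKM) overlapped, and *Sox10* lay below both at 35.7 ± 27.6 RPKM. *Sox13* was the fourth in each subset. The other 6 members were under 4 RPKM in every mean, and the lowest mean of a member was that of *Sox11* in ML cells at 0.0173 ± 0.0123 RPKM. The SOXC share was 51.0% ± 5.33 in MaSC/basal cells, 34.2% ± 7.94 in LP cells and 35.4% ± 4.79 in ML cells, whereas the SOXE share was 42.0% ± 4.21, 60.8% ± 8.34 and 59.3% ± 4.45. The SOXE share includes *Sox8*, which is not a member and took 2.68% ± 1.98 in MaSC/basal cells.

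**Figure D2:**
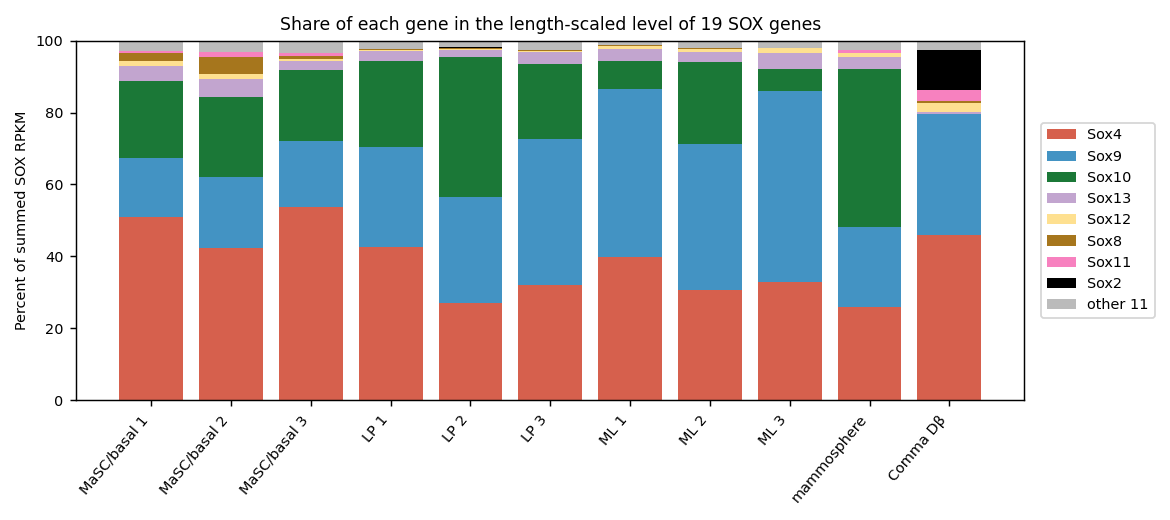
Percent of the RPKM summed over 19 SOX genes taken by each gene (stacked colours) in each of the 11 libraries. *Sox4*, *Sox9* and *Sox10* fill 79.6% or more of every bar, *Sox10* falls to 0.109% in Comma Dβ cells, and *Sox2* takes 11.2% there.

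The SOXC genes encode activators that are widely found in progenitor cells, and their 3 patterns differed. *Sox4*, a known regulator of epithelial-mesenchymal transition, stood at 360, 269 and 455 CPM in MaSC/basal libraries 1 to 3, at 516, 273 and 294 CPM in LP libraries 1 to 3, and at 361, 266 and 253 CPM in ML libraries 1 to 3. The 3 subsets overlapped. The fitted log2 fold change between MaSC/basal and LP cells was 0.00, with a 95% interval of -0.62 to 0.62, and those against ML cells were 0.30 for both MaSC/basal cells (-0.32 to 0.93) and LP cells (-0.32 to 0.93).

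*Sox11*, which is best known from immature neurons, was at 12.4, 20.8 and 15.2 CPM in MaSC/basal cells, at 0.917, 2.10 and 0.587 CPM in LP cells and at 0.141, 0.253 and 0.0456 CPM in ML cells. No subset overlapped another. Its mean was 13.4-fold higher in MaSC/basal than in LP cells (log2 fold change 3.66, SE 0.46, adjusted p = 7.96e-05) and 110-fold higher than in ML cells (6.50, SE 0.56, adjusted p = 5.70e-06). The level in LP cells was above that in ML cells by 2.84 on the log2 scale (SE 0.56, adjusted p = 0.00482), and the ML value rests on 25 reads over the 3 libraries, 1 of them in ML 3. Every call held with each library left out, but the size moved with ML 2, without which MaSC/basal against ML was at 7.25 and LP against ML at 3.59, and with LP 2, without which MaSC/basal against LP was at 4.37 and LP against ML at 2.13.

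*Sox12*, the third SOXC gene and usually the weakest activator of them, was at 14.1, 12.9 and 8.99 CPM in MaSC/basal cells, at 3.77, 3.67 and 4.54 CPM in LP cells and at 13.8, 12.7 and 12.9 CPM in ML cells. LP cells lay below both other subsets without overlap, by a log2 difference of 1.59 (MaSC/basal minus LP, SE 0.20, adjusted p = 9.38e-05) and of -1.72 (LP minus ML, SE 0.20, adjusted p = 8.27e-04). MaSC/basal and ML cells overlapped (log2 fold change -0.13, 95% interval -0.57 to 0.30).

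**Figure D3:**
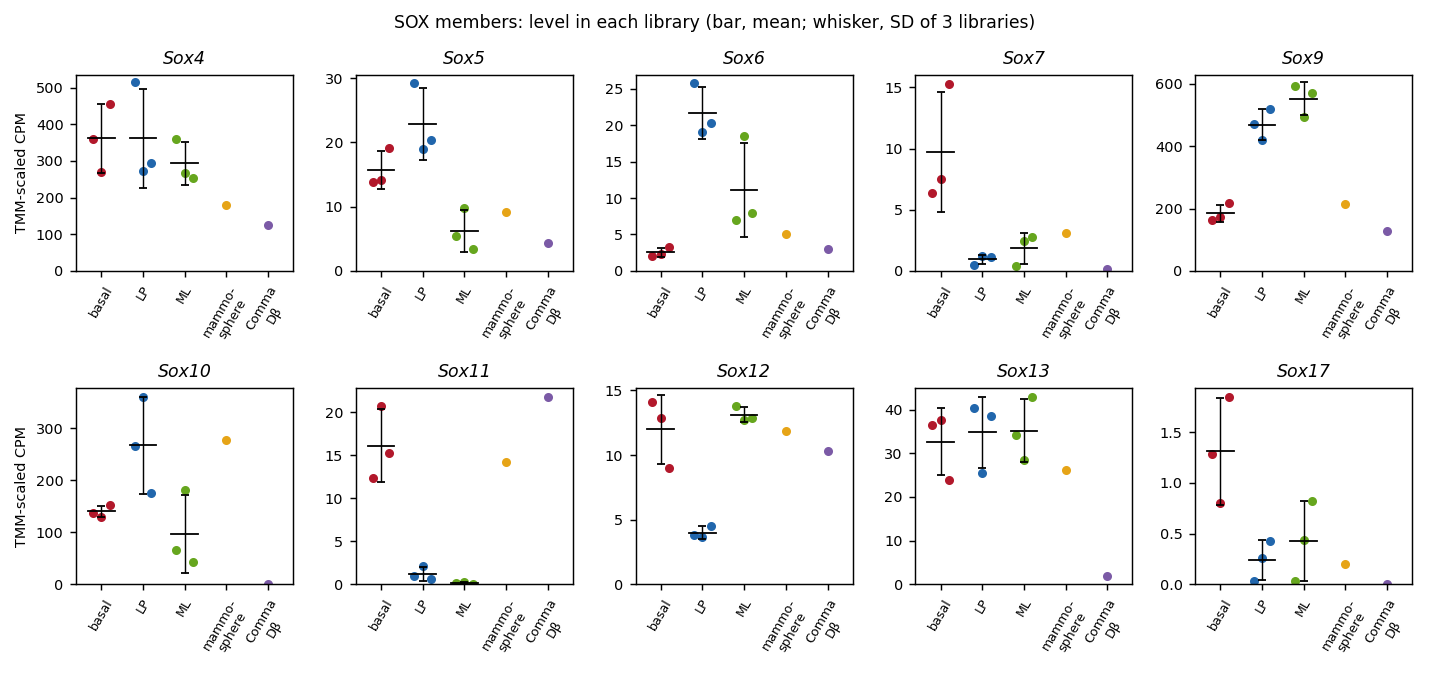
TMM-scaled CPM of the 10 members in each library (points, 3 per sorted subset and 1 per culture), with the mean (bar) and SD (whisker) of the 3 libraries, each panel on its own axis from 0. *Sox11* is at 0.0456 to 0.253 CPM in ML cells, *Sox12* is lowest in LP cells, and *Sox10* in ML 2 (182 CPM) stands far above ML 1 (65.0 CPM) and ML 3 (43.2 CPM).

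*Sox9*, a SOXE gene known for cartilage formation and for progenitors of several epithelia, was at 164, 173 and 217 CPM in MaSC/basal cells, at 470, 420 and 518 CPM in LP cells and at 594, 493 and 572 CPM in ML cells. Every luminal library lay above every MaSC/basal library. The mean was 2.54-fold higher in LP cells (log2 fold change of MaSC/basal against LP -1.35, SE 0.16, adjusted p = 6.29e-05) and 2.99-fold higher in ML cells (-1.58, SE 0.16, adjusted p = 1.93e-05). LP and ML cells overlapped and their difference did not pass the test (-0.24, 95% interval -0.59 to 0.12, adjusted p = 0.286), although LP was below ML in each of the 3 batches.

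*Sox10*, the other SOXE member and a regulator of neural crest and glia, was at 138, 130 and 152 CPM in MaSC/basal cells. It was at 266, 360 and 175 CPM in LP cells, each above every MaSC/basal library, and at 65.0, 182 and 43.2 CPM in ML cells, where ML 2 overlapped the LP range. LP cells exceeded ML cells in each of the 3 batches, by 1.46 on the log2 scale (SE 0.46, adjusted p = 0.0369). That call was lost without LP 1 (adjusted p = 0.0721), LP 2 (0.113), ML 1 (0.116), ML 3 (0.0808), MaSC/basal 1 (0.0557) or MaSC/basal 2 (0.0513), and the difference was 2.30 without ML 2 (adjusted p = 9.58e-04). MaSC/basal cells were below LP cells without overlap, but the difference did not pass the test (-0.93, SE 0.46, adjusted p = 0.107), whereas it did with library batch as a block (-1.32, adjusted p = 0.00505), without ML 2 (-0.93, adjusted p = 0.0109) and without ML 3 (-0.93, adjusted p = 0.0495). Against ML cells the log2 fold change of MaSC/basal cells was 0.53 (adjusted p = 0.343), and 1.37 without ML 2 (adjusted p = 0.00322). ML 2 is the ML library with the highest LP marker sum, and the part of these markers in its *Sox10* level was not tested. Of 9 Schwann cell and melanocyte markers, the summed level was 6.03 to 9.13 CPM over the 9 primary libraries and 2.62 CPM in Comma Dβ cells, and between 1 and 3 of the markers were at 0 in each primary library.

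The SOXD proteins lack a transactivation domain and are known to work beside SOX9 in cartilage and against SOX9 and SOX10 in glia. *Sox5* was at 13.8, 14.1 and 19.1 CPM in MaSC/basal cells, at 29.2, 18.9 and 20.3 CPM in LP cells and at 5.43, 9.77 and 3.46 CPM in ML cells, which lay below both other subsets. The difference was 1.85 on the log2 scale for LP minus ML (SE 0.35, adjusted p = 0.00398) and 1.31 for MaSC/basal minus ML (SE 0.34, adjusted p = 0.00760). MaSC/basal and LP cells overlapped (-0.54, 95% interval -1.29 to 0.20, adjusted p = 0.191).

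*Sox6*, a close relative of *Sox5*, was at 2.02, 2.27 and 3.30 CPM in MaSC/basal cells, at 25.8, 19.1 and 20.3 CPM in LP cells and at 6.93, 18.5 and 7.93 CPM in ML cells. The 3 subsets did not overlap, although ML 2 came within 1 CPM of LP 2. The mean was 8.58-fold higher in LP than in MaSC/basal cells (log2 fold change of MaSC/basal against LP -3.10, SE 0.39, adjusted p = 8.18e-05) and 4.39-fold higher in ML than in MaSC/basal cells (-2.15, SE 0.38, adjusted p = 7.07e-04, and -1.55 without ML 2). The difference between LP and ML cells did not pass the test (0.96, SE 0.36, adjusted p = 0.0679), but did with library batch as a block (1.08, adjusted p = 0.0356) and without ML 2 (1.55, adjusted p = 0.00277).

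*Sox13*, the third SOXD gene, was at 36.6, 37.6 and 23.8 CPM in MaSC/basal cells, at 40.4, 25.4 and 38.6 CPM in LP cells and at 34.2, 28.5 and 42.8 CPM in ML cells. All 3 subsets overlapped. The 95% intervals of the log2 fold changes were -0.62 to 0.44 for MaSC/basal against LP, -0.64 to 0.43 for MaSC/basal against ML and -0.55 to 0.52 for LP against ML.

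The SOXF genes *Sox7* and *Sox17* are best known from endothelial cells, where they act in the formation of arteries and other vessels. *Sox7* was at 6.33, 7.52 and 15.3 CPM in MaSC/basal cells, at 0.494, 1.22 and 1.12 CPM in LP cells and at 0.396, 2.45 and 2.73 CPM in ML cells. Each MaSC/basal library was above each luminal library, and the log2 fold change was 3.35 against LP (SE 0.66, adjusted p = 0.00162) and 2.39 against ML (SE 0.62, adjusted p = 0.00746). LP and ML cells overlapped (-0.96, 95% interval -2.40 to 0.48).

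*Sox17* was at 1.29, 0.797 and 1.85 CPM in MaSC/basal cells, at 0.0353, 0.262 and 0.427 CPM in LP cells and at 0.0283, 0.439 and 0.820 CPM in ML cells. It was counted in 214 reads over the MaSC/basal libraries, 23 over the LP libraries and 52 over the ML libraries, and it was over 0.5 CPM in 4 libraries, of which 3 were MaSC/basal and the other was ML 3. The filter asked for 3 libraries, so *Sox17* passed it only through MaSC/basal cells. Its calls as higher there are therefore no independent support for the difference. MaSC/basal cells exceeded LP cells without overlap (log2 fold change 2.49, SE 0.85, adjusted p = 0.0282), a call that was lost without LP 1 (1.99, adjusted p = 0.0813), LP 2 (2.64, 0.0711), MaSC/basal 1 (2.50, 0.0585) or MaSC/basal 3 (2.16, 0.0812). Against ML cells the ranges overlapped and the difference did not pass the test (1.68, SE 0.78, adjusted p = 0.0872), but did with library batch as a block (2.37, adjusted p = 0.0159) and without ML 3 (2.30, adjusted p = 0.0399).

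The summed level of endothelial markers and the means of both SOXF members were highest in MaSC/basal cells. Of 11 endothelial markers, 10 were called higher in MaSC/basal than in LP cells, beside 29.4% of all genes. Against ML cells 4 were called higher and 7 were not called, beside 28.9% of all genes higher, so that 4 of 11 is near that share. Their summed level was 90.4, 80.4 and 159 CPM in MaSC/basal libraries 1 to 3, 15.3, 41.5 and 33.1 CPM in LP libraries and 16.5, 60.8 and 69.1 CPM in ML libraries, and none of the 11 was at 0 in any primary library. The library with the highest sum, MaSC/basal 3, also had the highest *Sox7* and *Sox17*, and the libraries with the lowest primary sums, LP 1 and ML 1, had the lowest primary values of both genes. Other libraries did not keep that order, since MaSC/basal 2 had a lower sum than MaSC/basal 1 but more *Sox7* (7.52 against 6.33 CPM). The mammosphere library, at a sum of 21.4 CPM, had *Sox7* at 3.13 CPM, above every luminal library. *Pecam1*, which encodes CD31, the antigen of the depletion, was at 18.1, 19.2 and 39.5 CPM in MaSC/basal cells. The part of these markers in the SOXF results was not tested. *Sox18*, the remaining SOXF gene and no member, was at 2.04, 2.35 and 1.94 CPM in MaSC/basal cells and at 0.255 to 0.911 CPM in the 6 luminal libraries (log2 fold change 2.91 against LP and 1.99 against ML). Like *Sox17*, it passed the filter only through the MaSC/basal libraries, where it was high, so its calls are no independent support for that difference.

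**Figure D4:**
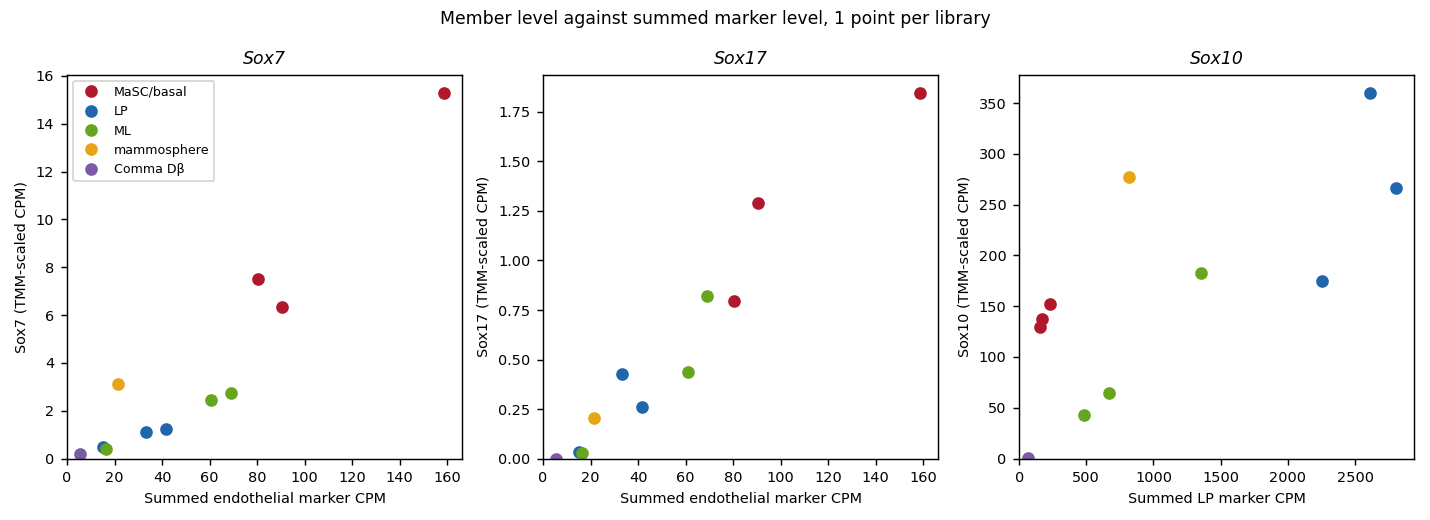
*Sox7* and *Sox17* (TMM-scaled CPM) against the summed CPM of 11 endothelial markers, and *Sox10* against the summed CPM of 6 LP markers, with 1 point per library coloured by group. MaSC/basal 3 has both the highest endothelial sum (159 CPM) and the highest *Sox7* (15.3 CPM), and ML 2 has the highest LP marker sum (1353 CPM) and the highest *Sox10* (182 CPM) of the ML libraries.

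In culture, each value came from 1 library and no test was made. A member was counted when it differed over 2-fold from the MaSC/basal mean on the log2 CPM scale (prior count 2) and lay outside the 3 MaSC/basal libraries. In mammosphere cells 1 member was higher (*Sox6*, by a log2 difference of 1.03 at 5.10 CPM) and 2 were lower (*Sox7*, -1.51 at 3.13 CPM, and *Sox17*, -2.37 at 0.203 CPM or 9 reads), beside 39.6% of all genes, 19.6% higher and 20.0% lower. *Sox10* and *Sox4* were just inside that fold, at 277 CPM (0.99) and 179 CPM (-0.98), and *Sox4* was below all 9 primary libraries. With each library left out, the differences of *Sox6* (0.88 to 1.23), *Sox10* (0.94 to 1.05) and *Sox4* (-1.18 to -0.80) fell on both sides of the 2-fold limit. *Sox10* became the SOX gene with the largest share of summed RPKM, 43.9% against 21.1% ± 1.37 (SD, n = 3) in MaSC/basal cells. *Sox9* (215 CPM), *Sox11* (14.2 CPM), *Sox12* (11.8 CPM) and *Sox13* (26.2 CPM) lay within the MaSC/basal range, with log2 differences of 0.23, -0.15, 0.01 and -0.29. *Sox5* was at 9.22 CPM (-0.75). In the same library the endothelial sum was 21.4 CPM, the LP marker sum 820 CPM and the basal marker sum 5492 CPM, against 19436 to 27184 CPM in MaSC/basal cells, and the part of these markers was not tested.

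In Comma Dβ cells 6 members were lower and 0 were higher, beside 24.8% of all genes lower and 16.9% higher (41.6% in either direction). *Sox10* was at 0.272 CPM (8 reads), 514-fold below the MaSC/basal mean, and *Sox13* at 1.94 CPM was 16.8-fold below it. *Sox7* was at 0.170 CPM (5 reads), and *Sox17* had 0 reads, which against the limit of 3 reads in this library (0.102 CPM) makes it at least 12.8-fold lower than in MaSC/basal cells. *Sox4* (125 CPM, log2 difference -1.49) and *Sox5* (4.36 CPM, -1.82) were also lower. *Sox9* was at 127 CPM, below all primary libraries but within 2-fold of the MaSC/basal mean (-0.53). *Sox11* was at 21.8 CPM, above all primary libraries (0.46), and *Sox6* (3.03 CPM) and *Sox12* (10.3 CPM) lay within the MaSC/basal range. Summed over the 19 SOX genes, the level was 91.8 RPKM, and the sorted subsets were at 246 ± 36.3 RPKM (MaSC/basal), 353 ± 50.4 RPKM (LP) and 286 ± 23.9 RPKM (ML, each SD, n = 3). The line differs from the sorted cells in strain, reproductive stage and culture at once, and these cannot be told apart.

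The other 9 SOX genes of the series were mostly scarce, and 5 of them passed the filter. *Sox8*, the last SOXE gene, followed *Sox11* in direction, at 16.4, 30.9 and 7.93 CPM in MaSC/basal cells, while LP libraries held 1.82 to 3.10 CPM and ML libraries 0.651 to 1.26 CPM (log2 fold change of MaSC/basal 2.79 against LP, adjusted p = 6.42e-04, and 4.29 against ML, adjusted p = 5.57e-05). *Sox14* was at 0.936 to 2.24 CPM in LP cells, 0.339 to 0.399 CPM in ML cells and at most 0.0509 CPM in MaSC/basal cells. *Sox15* was higher in ML than in LP cells (0.944 to 1.78 CPM against 0.356 to 0.694 CPM, adjusted p = 0.0166), and *Sox21* did not pass the test in any pairwise comparison. *Sox2*, a pluripotency factor of the SOXB1 subgroup, was counted in 47 reads over the 9 primary libraries and in 742 reads (25.3 CPM) in Comma Dβ cells. *Sox1*, *Sox3* and *Sox30* were counted in 4, 3 and 28 reads over the primary libraries.

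Genes that act with or under SOX proteins elsewhere were taken as lists. Of 12 SOX partner factors 8 were tested. In MaSC/basal cells 6 were higher and 2 lower than in LP cells (median log2 fold change 1.44, against -0.01 over all genes). The background was 29.4% of all genes higher and 28.0% lower. Against ML cells 5 were higher and 2 lower (2.77), beside 28.9% and 29.7% of all genes. Between LP and ML cells 2 were higher in LP, 0 were lower and 6 were not called (0.31), beside 14.3% and 17.5% of all genes. *Snai2*, which encodes the Slug repressor that has been linked to SOX9 in neural crest and mammary stem cells, was at 118, 86.9 and 121 CPM in MaSC/basal cells, opposite in direction to *Sox9*, and at 0.518 to 3.48 CPM in the luminal libraries. *Egr2*, a partner of SOX10 in Schwann cells, was at 397, 661 and 290 CPM in MaSC/basal cells and 30.4 to 217 CPM in the luminal libraries.

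Of 12 cartilage genes of SOX9, SOX5 and SOX6, 8 were tested. In MaSC/basal cells 5 were higher and 2 lower than in LP cells (median 1.30), beside 29.4% and 28.0% of all genes. Against ML cells 4 were higher and 1 lower (1.95), beside 28.9% and 29.7% of all genes. Of the 8, 5 were higher in LP than in ML cells, beside 14.3% of all genes, and the rest did not pass the test (1.69). *Col9a2*, a chain of the cartilage collagen IX, was at 443, 438 and 468 CPM in MaSC/basal, 80.2, 57.9 and 56.8 CPM in LP and 13.7, 31.5 and 10.2 CPM in ML cells, and *Col9a3* and *Col11a1* had the same order of means. *Col9a1*, the third chain of collagen IX, was highest in LP cells at 155, 163 and 116 CPM, against 48.0 to 70.2 CPM in MaSC/basal and 18.5 to 62.6 CPM in ML cells. ML 2 was the highest of the ML libraries for each of these 4 collagen genes, as it was for *Sox5*, *Sox6* and *Sox10*.

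Of 13 neural crest and glial genes of SOX10, 9 were tested. In MaSC/basal cells 3 were higher and 5 lower than in LP cells (median -0.86), beside 29.4% and 28.0% of all genes. Against ML cells 2 were higher and 3 lower (0.33), near the shares of all genes (28.9% and 29.7%). Between LP and ML cells 3 were higher in LP and 1 lower (0.30), beside 14.3% and 17.5% of all genes. *Erbb3*, a neuregulin receptor that SOX10 activates in glia, was at 11.1 to 12.8 CPM in MaSC/basal and at 148 to 340 CPM in luminal libraries, and *Mbp*, a myelin protein gene, was at 11.3 to 22.8 CPM and 103 to 168 CPM. *Pmp22*, another gene of this list, went the other way, at 117, 143 and 159 CPM in MaSC/basal and 9.98 to 50.8 CPM in luminal libraries. *Cdh19*, a Schwann cell precursor cadherin, was at 2.05, 3.00 and 1.28 CPM in LP cells and at most 0.543 CPM in the other primary libraries (LP against ML 3.61 on the log2 scale). It passed the filter only through the LP libraries, so its call as higher there is no independent support for that difference. *Sox10* had the same order of subset means, and in Comma Dβ cells, where *Sox10* was at 8 reads, *Cdh19* was at 0.102 CPM.

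Of 6 genes linked to SOXC factors 5 were tested. In MaSC/basal cells 4 were higher and 1 was lower against both LP (median 1.46) and ML cells (1.18). The background was 29.4% of all genes higher and 28.0% lower against LP, and 28.9% and 29.7% against ML. Between LP and ML cells none of the 5 was called (-0.28), beside 31.8% of all genes. *Stmn1* and *Tubb3*, which encode proteins of the neuronal microtubule system, were higher in MaSC/basal cells by 2.42 and 3.16 against ML on the log2 scale, in the direction of *Sox11*. *Tead2*, a partner of YAP that SOXC factors activate in embryonic tissue, was at 20.4 to 31.0 CPM in MaSC/basal cells and 166 to 236 CPM in luminal libraries, opposite in direction to *Sox11*.

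For each member, the genes most like it over the 11 libraries were found by Pearson's r of log2 CPM. These libraries share batches and group differences, and r is given as a description. The nearest genes of *Sox7* were *Cyp4b1* (r = 0.978), *Erg* (0.967), an endothelial transcription factor that is also on the endothelial list, and *Adcy4* (0.964). The nearest of *Sox17* were *Robo4* (0.990), an endothelial guidance receptor, *Shank3* (0.984) and *Fabp4* (0.984), which capillary endothelium and adipocytes express. *Sox10* was nearest to *Itga2* (0.990), which is also on the LP marker list, *Acer2* (0.989) and *Satb1* (0.988). In Comma Dβ cells *Sox10* (0.272 CPM), *Itga2* (1.19 CPM), *Acer2* (0.272 CPM) and *Satb1* (0.340 CPM) were all far below the other groups. The part of this 1 library in these r values was not tested. *Sox9* was nearest to *Zbtb43* (0.992), *Sox11* to *Epb41l2* (0.991), *Sox6* to *Traf6* (0.989), *Sox13* to *Grhl2* (0.987), an epithelial transcription factor, *Sox5* to *Tanc1* (0.983), *Sox12* to *Limk2* (0.955) and *Sox4* to *Cd83* (0.930). *Sox13* (1.94 CPM) and *Grhl2* (13.2 CPM) were likewise far lower in Comma Dβ cells than in the other groups. Among the members themselves the highest r was that of *Sox7* and *Sox17* (0.933) and the lowest that of *Sox9* and *Sox11* (-0.944).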

How the data were processed

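RNA-seq was analysed for 11 libraries. Reads had been mapped by the authors to mm10 (GRCm38) with Rsubread and summarised per Entrez gene with featureCounts, and the deposited values are raw counts, neither normalised nor filtered, with the exon length of each gene. The submitters' processing notes also name CASAVA 1.8.0, edgeR 3.6.2 and limma 3.20.5. The handling of reads that fit several genes, which could affect paralogs such as the SOX genes, is not given in the sources used here. Symbols were taken from RefSeq for 25275 genes and from GENCODE for 18.

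Groups followed the sample labels. Counts were fitted in R 4.3.3 with edgeR 4.0.16 (TMM factors, quasi-likelihood F test, a mean for each of 5 sample types, all 11 libraries), on 15422 genes that exceeded 0.5 CPM in 3 or more libraries, and p-values were adjusted by Benjamini-Hochberg over all of them. SE is the fold change divided by the square root of F. The script was tested on simulated data. The members and all lists were chosen with earlier results of these data known. Beside the members and the other SOX genes, genes named from a list are among its 4 of highest primary mean, its 3 of largest called change or its defining markers, not all of which are named, and, per member, up to 3 nearest genes are given. RPKM is TMM-scaled CPM per kilobase. Sequences and coordinates are RefSeq GRCm38.p6.

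Library batch, from the labels, served as the replicate block. Deviations from group means of same-batch libraries of different groups had a median correlation of 0.240 (9 pairs, -0.118 to 0.526), against -0.103 (18 pairs) across batches. Alternatives were DESeq2 size factors, no scaling, limma voom 3.58.1, DESeq2 1.42.0, other filters, the 9 primary libraries alone, the block, another prior count or fold, TPM in place of RPKM, and each library left out. Read limits cover counting error only. Replicates of a subset differed by far more than sampling noise (chi-square per degree of freedom 52.1 to 186).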

Additional observations from a re-analysis of the deposited data

How the results depend on the processing

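The numbers of called members stayed within 1.5 times of those reported, except that at 4-fold 1 member (*Sox17*) was counted in mammosphere cells. Over the alternatives the counts were 5 to 7 for MaSC/basal against LP, 5 to 6 against ML, 3 to 5 for LP against ML, 5 to 7 against the mean of LP and ML, 1 to 4 in mammosphere cells and 4 to 6 in Comma Dβ cells. With library batch as a block *Sox10* (MaSC/basal against LP), *Sox17* (MaSC/basal against ML) and *Sox6* (LP against ML, 1.08) passed the test, and the block changed no other call. *Sox17* against ML also passed by limma voom (2.31) and *Sox6* between LP and ML by DESeq2 (0.98). Against the mean of LP and ML, *Sox17* did not pass without MaSC/basal 3 (1.76) and *Sox5* passed without ML 2 (0.63).

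Log2 fold changes that changed sign were all of differences that did not pass the test, and the cause was not tested. For MaSC/basal against LP, *Sox4* was -0.00094 with DESeq2 size factors, -0.00095 by DESeq2, -0.0097 without a filter and -0.21 to 0.33 with each library left out, and *Sox13* was 0.061 without scaling, 0.11 with the block and -0.29 to 0.085 with each left out. For MaSC/basal against ML, *Sox13* was 0.090 with the block and -0.24 to 0.090, and *Sox12* -0.27 to 0.048, with each left out. For LP against ML, *Sox13* was 0.0057 with DESeq2 size factors and by DESeq2, and -0.15 to 0.19, and *Sox4* -0.025 to 0.50, with each left out. Against the mean of LP and ML, *Sox13* was 0.10 with the block and -0.21 to 0.088, *Sox4* -0.049 to 0.32 and *Sox10* -0.38 to 0.22 with each left out. Depth limits *Sox17* and *Sox11* in luminal cells, where single libraries held 1 read.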

Other observations

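TCF/LEF genes and other sequence-specific HMG-box genes outside the SOX family were taken as a list, of which 7 were tested. *Tcf7*, an effector of Wnt signalling, was at 157, 134 and 134 CPM in MaSC/basal cells and at 4.69 to 10.0 CPM in the luminal libraries (log2 fold change 4.58 against LP, adjusted p = 1.53e-07). *Tcf7l1*, a Wnt-pathway repressor, was at 60.4 to 82.8 CPM and 6.33 to 18.4 CPM. *Tcf7l2* was highest in LP cells, at 150, 84.3 and 146 CPM, against 38.8 to 44.8 CPM in the other 6 primary libraries, where the ranges of MaSC/basal and ML cells overlapped. Against LP cells 2 of the 7 genes were higher and 2 lower in MaSC/basal cells (median 0.31), against ML cells 3 higher and 1 lower (0.15), and between LP and ML cells 1 higher and 1 lower (-0.09), shares near those of all genes called (57.4%, 58.7% and 31.8%). *Cic*, a repressor outside the TCF/LEF family, stayed at 160 to 216 CPM in the primary libraries and was at 195 and 180 CPM in mammosphere and Comma Dβ cells.

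In the mammosphere library the summed level of 7 skeletal muscle markers was 101 CPM, against 1.24 to 8.52 CPM in the primary libraries, with *Acta1* at 34.7 CPM. The summed level of 8 fibroblast markers was 2472 CPM there and 3700 CPM in Comma Dβ cells, against 313 to 1438 CPM in the primary libraries. Leukocyte markers summed to 8.15 to 22.4 CPM in the primary libraries. Of 6 pericyte markers, *Notch3*, which luminal cells also express, made up most of the luminal sum.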
